A study of Mus musculus with 2 samples.

Results

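H19 and 8 other imprinted genes (Igf2, Meg3, Dlk1, Peg3, Cdkn1c, Grb10, Mest and Ndn) were followed through single cells of mouse embryonic stem cell cultures differentiated towards sensory interneurons of the spinal cord. The genes were taken by symbol from the feature list of both libraries. Of 10 listed symbols, 9 matched 1 of the 31053 genes, and Rian was not analysed here. The list was chosen by the difference of H19 between the conditions in these same data, its whole-library ratio of RA+BMP4 over RA, so that difference is a description.

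The cultures came from the MM13 mouse embryonic stem cell line and were taken at day 9 of differentiation, either under retinoic acid (RA) or under retinoic acid with bone morphogenetic protein 4 (RA+BMP4). RA is the shared base treatment, and BMP4 is a signal that patterns the dorsal neural tube. Each condition is a single 10x Genomics 3' library, so no difference between conditions has a replicate check, and all intervals cover counting error only. After filtering, the RA library held 5896 cells with a median of 14192 UMIs (unique molecular identifiers, counts of captured transcripts), and 8333 cells of RA+BMP4 had 10464; 21 kept barcodes occurred in both. The labels call the cells differentiated neurons, and 2650 RA and 3074 RA+BMP4 cells were neuron-like by their markers, alongside roof plate-like, progenitor-like, dorsal midline epithelium-like, mesenchyme-like and remaining pluripotent-like cells.

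Imprinted genes are transcribed mainly from the copy inherited from one parent, according to DNA methylation marks set in the germ line. H19, a non-coding RNA expressed from the maternal copy, and Igf2, a fetal growth factor expressed from the paternal copy, are neighbours that share enhancers, and CTCF binding at a control region between them directs those enhancers to one gene or the other. Many imprinted genes act on growth of the embryo and are abundant in mesoderm. The counts carry no information on the parental copy, so imprinting itself was not measured.

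In the GENCODE vM21 annotation of GRCm38, H19 is a long non-coding RNA at chr7:142575529-142578143 on the minus strand, and Igf2 lies on the same strand at chr7:142650766-142666816. Cdkn1c, Ndn and Peg3 are also on chromosome 7. Dlk1 and Meg3 are neighbours on the plus strand of chromosome 12, at chr12:109452823-109463336 and chr12:109541001-109571726. Mest is on chromosome 6 and Grb10 on chromosome 11. Several members are also host genes: of 1738 mature mouse miRNAs in RefSeq (GRCm38.p6), 9 lie on the same strand inside 4 of the members. These products are not captured by a 3' poly(A) library and were not measured. They are shown because they are the sequences known to be cut from the H19, Igf2, Mest and Meg3 transcripts counted here, with the seed (bases 2 to 8) in capitals; none of these 6 seeds is shared with another mature miRNA of the table.
miR-675-5p chr7:142577112-142577133 (-): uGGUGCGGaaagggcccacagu
miR-675-3p chr7:142577078-142577099 (-): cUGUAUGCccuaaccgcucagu
miR-483-5p chr7:142654968-142654989 (-): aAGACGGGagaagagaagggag
miR-483-3p chr7:142654932-142654952 (-): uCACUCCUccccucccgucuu
miR-335-5p chr6:30741314-30741336 (+): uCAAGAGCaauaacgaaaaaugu
miR-770-5p chr12:109563710-109563731 (+): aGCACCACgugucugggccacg
The first pair is cut from H19 and the second from Igf2, while miR-335-5p comes from Mest and miR-770-5p from Meg3.

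H19 was higher in the RA+BMP4 library and was the member with the largest difference. It had 7182 UMIs in RA and 16234 in RA+BMP4, or 66.0 and 159.8 CPM (UMIs scaled to the same total in each library or cell group), a ratio of 2.42 (95% interval 2.36 to 2.49). A gene was called where it reached 20 CPM in either library and the libraries were 2-fold or more apart, and H19 was the only member called of the 8 that reached that level. Of all 7151 genes at that level, 0.811% were called higher and 0.601% lower. The nearest member outside the call was Dlk1, a Notch-related membrane protein of mesoderm and immature cells, at 64.1 and 118.9 CPM (ratio 1.86), and Igf2 stayed just under the level limit at 10.8 and 18.1 CPM (ratio 1.68, 1.56 to 1.81).

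The remaining members lay closer together between the libraries. Meg3, a maternally expressed non-coding RNA, was at 966 CPM in RA and 1379 in RA+BMP4, a ratio of 1.43. Peg3, a zinc-finger protein of the paternal copy, stood at 659 and 861 CPM, and Mest, a hydrolase-like protein of mesoderm, at 285 and 362 CPM. Ndn, a growth-restraining protein of neurons, was at 146 and 165 CPM. Below 1 were Cdkn1c, the p57 inhibitor of cyclin-dependent kinases, at 1255 and 1050 CPM (0.837), and Grb10, an adaptor that dampens insulin and IGF receptor signalling, at 135 and 98.0 CPM (0.725). The Cdkn1c direction turned under a stricter cell filter, where its log2 ratio was 0.06.

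Whole libraries mix cell types, and the level of H19 differed widely between types of cell. In mesenchyme-like cells (436 in RA and 920 in RA+BMP4), named from collagens and Prrx1, H19 reached 495.5 and 487.7 CPM, which held 83.6% and 49.9% of all H19 UMIs. The 2 libraries did not differ there beyond counting error (ratio 0.984, 0.952 to 1.02). Roof plate-like cells, which in the embryo secrete BMP and Wnt signals at the dorsal midline, had 32.5 CPM in RA and 202.8 in RA+BMP4, a ratio of 6.24 (5.61 to 6.94). Dorsal midline epithelium-like cells, marked by Cp and Colec12, had 3.99 and 65.2 CPM (ratio 16.3, 11.8 to 23.2). Progenitor-like cells had 10.4 and 58.0 CPM, and newborn neuron-like cells 7.85 and 54.2 CPM.

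**Figure D1:**
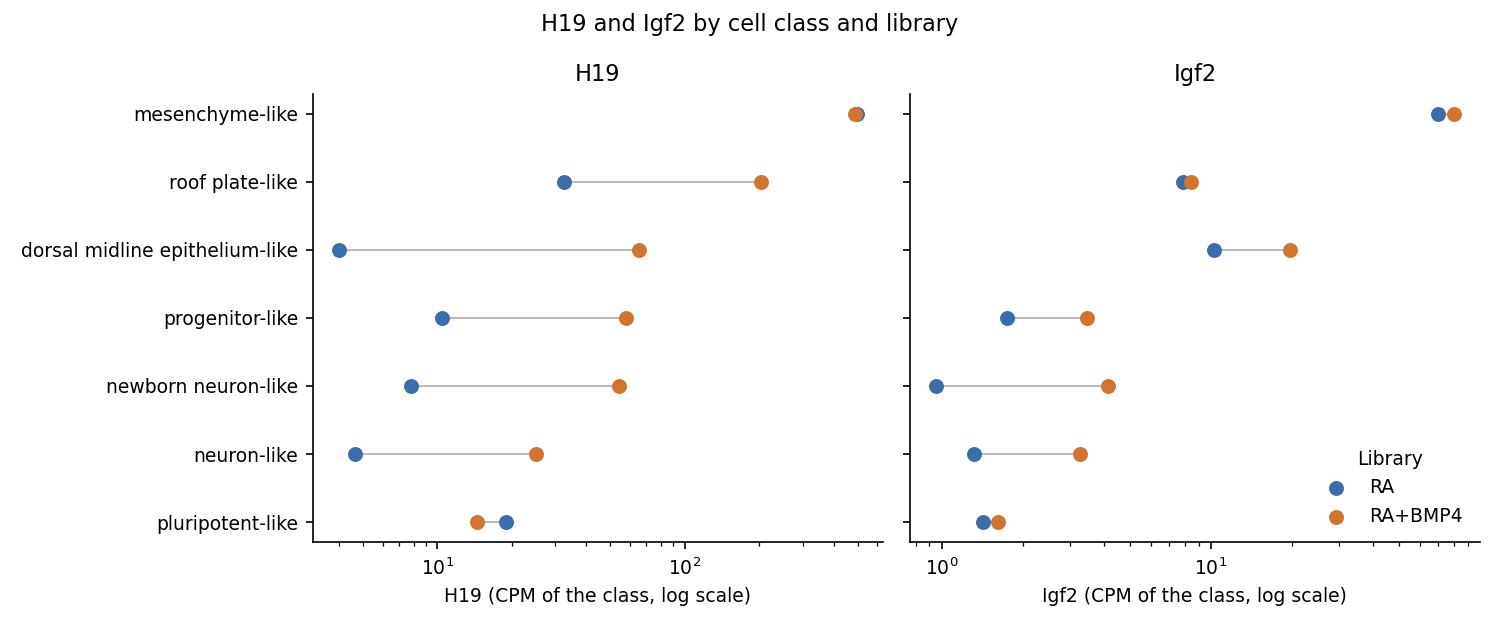
H19 (left) and Igf2 (right) level of each cell class, in CPM on a log axis; each point is 1 library, RA in blue and RA+BMP4 in orange, joined by a line. H19 was at 495.5 and 487.7 CPM in mesenchyme-like cells and at 65.2 against 3.99 CPM in dorsal midline epithelium-like cells, while Igf2 points lie closer together.

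Neuron-like cells had the lowest H19 level in RA+BMP4 apart from pluripotent-like cells: 4.65 CPM in RA and 25.0 in RA+BMP4 (ratio 5.37, 4.52 to 6.42). Most neuron-like cells of RA were in clusters 5, 6 and 7, and most of RA+BMP4 in clusters 2, 8, 13 and 14. Free RNA from other cells adds UMIs to every cell of a droplet library, and its part in this level was not tested. For scale, collagen Col1a1, which neurons should lack, was at 2.75 and 2.87 CPM in the same cells (ratio 1.04, 0.770 to 1.41), and Col3a1 at 13.4 and 21.9 CPM (1.63, 1.44 to 1.84). At a fixed 5000 UMIs per cell, 2.02% of RA and 11.5% of RA+BMP4 neuron-like cells had an H19 UMI, against 44.3% and 39.7% of mesenchyme-like cells and 7.88% and 37.4% of roof plate-like cells; median depths before thinning were 12262 and 9368, 24978 and 15692, and 18702 and 10516 UMIs. Over all cells the shares were 6.32% and 24.0% after thinning. Pluripotent-like cells had 18.8 CPM in RA and 14.5 in RA+BMP4 (ratio 0.768, 0.607 to 0.963), but a single RA cell held 126 of the 344 RA UMIs. Without the cell richest in H19 in each library the levels were 12.0 and 12.7 CPM (1.06, 0.819 to 1.37), and the thinned share of cells with H19 was 3.74% in RA and 10.6% in RA+BMP4.

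Within single clusters the same order held. Of 20 clusters with at least 50 cells in both libraries, 16 had H19 at 20 CPM or more, and in 14 of these it was at least 2-fold higher in RA+BMP4; over all gene and cluster pairs 2.29% were called higher and 1.05% lower, and in the shallow cluster 20, led by muscle genes, 13% and 4.75%. The 2 others were the mesenchyme-like clusters 1 (586 and 558 CPM) and 17 (350 and 401 CPM). The median ratio over the 20 clusters was 4.81. Of 6742 genes tested in at least 10 clusters, 4 were called higher in as many clusters as H19: H19, Slc16a3 (16 clusters), Hoxc9 (16) and Bnip3 (15), named here after their values were seen. In cluster 19, with 1 H19 UMI in RA, the ratio was computed from 3 UMIs, and clusters 11 and 15 carry their roof plate-like name without a marker among their leading genes.

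None of the other members was called higher in most clusters, as the heat map of cluster ratios shows. Grb10 was called lower in 5 of the 15 clusters tested and higher in none. The 5 were roof plate-like clusters 11 (299 and 110 CPM) and 15 (311 and 127 CPM), where 0.611% and 1.76% of genes were called lower, dI1-like cluster 13, pluripotent-like cluster 16 and cluster 20. Meg3 was called higher in 3 of 20, progenitor-like cluster 4 (59.0 and 128 CPM) and the unnamed shallow clusters 19 and 20, and its ratio was above 1 in 18 of 20. Mest was called higher in dI5-like cluster 5 (35.5 and 71.3 CPM) and lower in progenitor-like cluster 10 (400.1 and 169 CPM). Cdkn1c, Ndn and Dlk1 were each called lower in 1 cluster, cluster 20. Peg3 was called in none of 20 clusters. Igf2 reached the level limit only in the 2 mesenchyme-like clusters, where it was not called, and it could not be called in the clusters where H19 was.

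**Figure D2:**
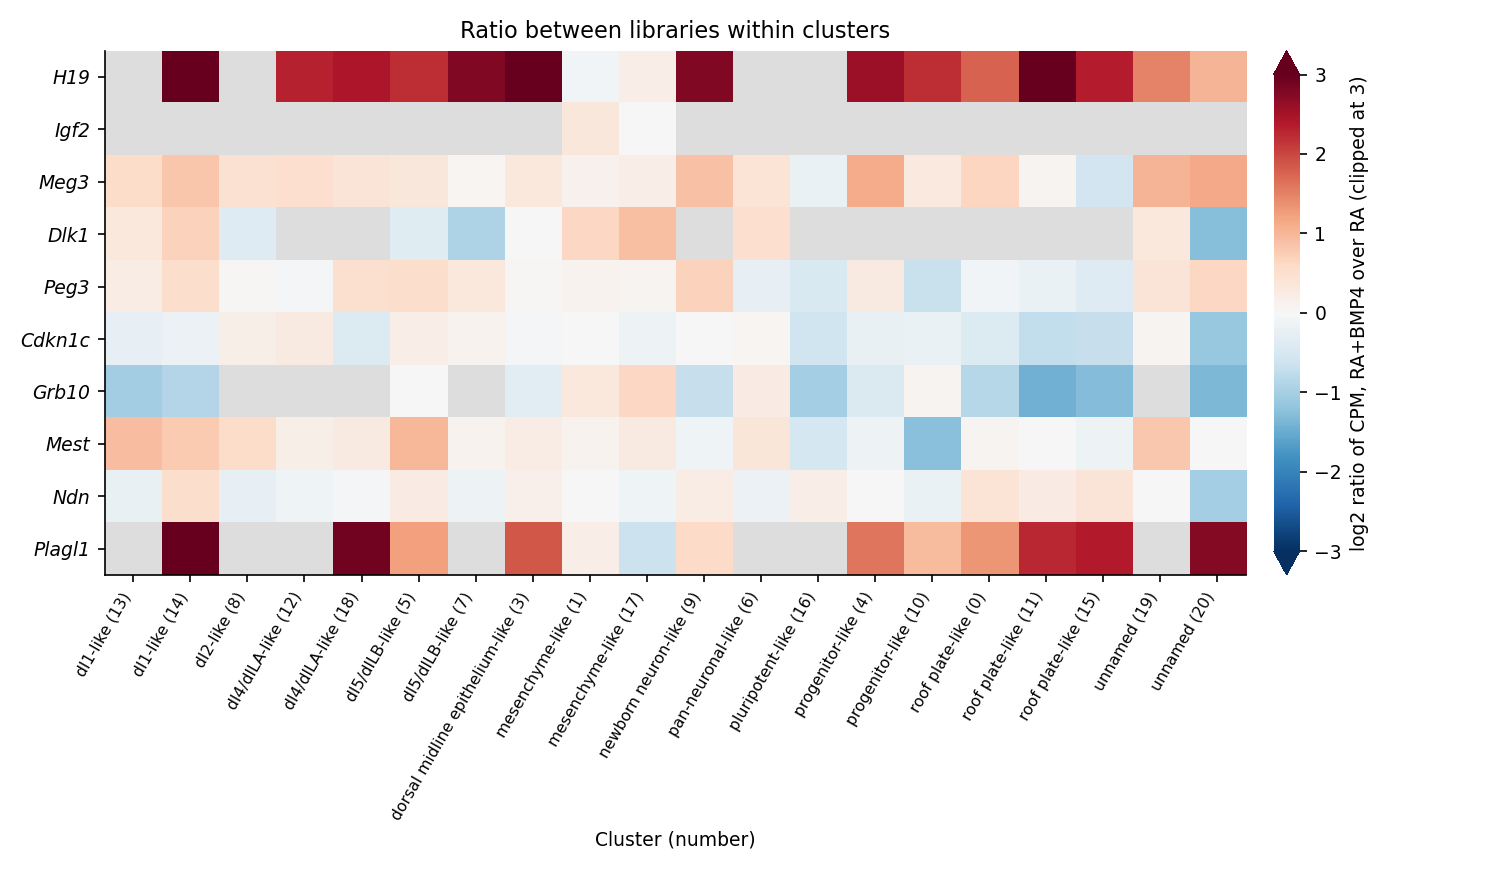
Log2 ratio of CPM, RA+BMP4 over RA, of each member and of Plagl1 (rows) in the 20 clusters compared (columns, with cluster number); red is higher in RA+BMP4, and grey marks pairs under 20 CPM in both libraries. The H19 row is red in 14 clusters and near white in the mesenchyme-like clusters 1 and 17.

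The whole-library H19 ratio of 2.42 was below the median cluster ratio, and the mesenchyme-like cells, with most of the UMIs in RA, were the cells that did not differ. Without mesenchyme-like cells the log2 ratio rose from 1.28 to 2.97, and without cluster 1 alone it was 2.12. With the cell makeup of RA imposed on both libraries, the H19 ratio over the 20 compared clusters was 1.55 against 2.61 as observed, and with the makeup of RA+BMP4 it was 1.60. Putting the RA+BMP4 makeup on RA levels alone gave 1.63. For Peg3, the observed ratio of 1.40 became 1.00 at the RA makeup, and for Mest 1.33 became 0.986. Other genes kept a difference at the RA makeup: Igf2 went from 1.84 to 1.29, Dlk1 from 1.95 to 1.34 and Grb10 from 0.778 to 0.740. Plagl1, which is outside the list, went from 2.88 to 2.19, above the H19 ratio.

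Igf2 was mesenchymal in both libraries. It stood at 70.1 and 80.0 CPM in mesenchyme-like cells (ratio 1.14), which held 72.5% and 72.2% of its UMIs. Neuron-like cells had 1.31 and 3.27 CPM (2.48, 1.73 to 3.62), from 45 and 98 UMIs. Progenitor-like cells had 1.75 and 3.46 CPM (1.98, 1.01 to 3.74), from 28 and 17 UMIs. Newborn neuron-like cells had a ratio of 4.36 (1.41 to 17.9), from 4 and 16 UMIs. Roof plate-like cells as a whole had 7.87 and 8.47 CPM (ratio 1.08, 0.844 to 1.39), against an H19 ratio of 6.24. Igf2 levels in parts of this class are given below. Dorsal midline epithelium-like cells had 10.3 and 19.7 CPM (1.92, 1.43 to 2.58).

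Across 42 sums of cells by cluster and library, H19 and Igf2 rose and fell together (Pearson r 0.829 on log2(CPM + 5), and 0.650 over the 38 sums without mesenchyme-like clusters; the sums share 2 libraries). The profiles most like H19 were Mmp14 (r 0.863), a matrix protease, Ednra (0.862), an endothelin receptor, Igsf10, Efemp2 and Tnfrsf1a, followed by Col23a1, P4hb, P3h4, Sin3b and Cmtm3 (lowest 0.829). Igf2 was most like Prrx1 (0.956), a limb and craniofacial mesenchyme factor, Itga8, Col3a1 and Snai2, and the imprinted Zim1 was also among its 10 (0.933). Meg3 was most like Tanc2 (0.888) and Mirg (0.882), the latter a non-coding RNA of the same imprinted domain.

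Within mesenchyme-like cells, however, H19 and Igf2 were found in the same cell less often than the product of their shares. At 5000 UMIs per cell, 190 of 429 RA cells had an H19 UMI and 130 an Igf2 UMI, and 31 had both, where the product of the shares gives 57.6. In RA+BMP4, 360 of 906 had H19, 293 had Igf2 and 67 had both, where the product gives 116.4. Igf2 was seen in 16.3% of RA cells with H19 (exact interval 11.4 to 22.3) and 41.4% of those without (35.1 to 48.0). The RA+BMP4 library gave 18.6% (14.72 to 23.02) and 41.4% (37.2 to 45.6). Thinning sets how many cells show either RNA: with all UMIs counted, 139 of 436 RA cells had both (product 173.4) and 223 of 920 RA+BMP4 cells (product 290.2). Igf2 was then seen in 57.9% of RA cells with H19 and 89.8% of those without, and in 49.5% and 78.7% in RA+BMP4, so many cells carried both RNAs.

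The H19-bearing cells differed from the others in a property that spans whole chromosomes. Among mesenchyme-like cells with at least 3 H19 UMIs against those with none, the median log2 difference of non-imprinted genes was 0.28 on chromosome 8 and 0.26 on chromosome 11 in RA, and 0.35 and 0.32 in RA+BMP4. The medians of the 18 other chromosomes (1 to 19 and X) ran from -0.11 to 0.00 in RA and from -0.15 to -0.01 in RA+BMP4. H19 is on chromosome 7. This was noticed while examining the cells, and the split that follows was added after the data had been seen. Chromosomes 8 and 11 were taken from this comparison of cells by their H19, so the H19 difference between the ranges is a description.

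Summed UMIs of 579 genes of chromosome 8 and 814 of chromosome 11, relative to other autosomes and without any imprinted gene, placed the cells of every cluster in 2 ranges. The gap between them was 1.29-fold to 1.43-fold in the 23 clusters, against a spread within a range of 0.08 to 0.15 on the log2 scale. The cut is a point on a score and not a boundary between types: 1669 of 13474 cells (12.4%) lay within 0.1 log2 units of it. Splitting on chromosome 8 alone and on chromosome 11 alone put 81.5% of RA and 86.1% of RA+BMP4 cells in the same range. DNA copy number was not measured.

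**Figure D3:**
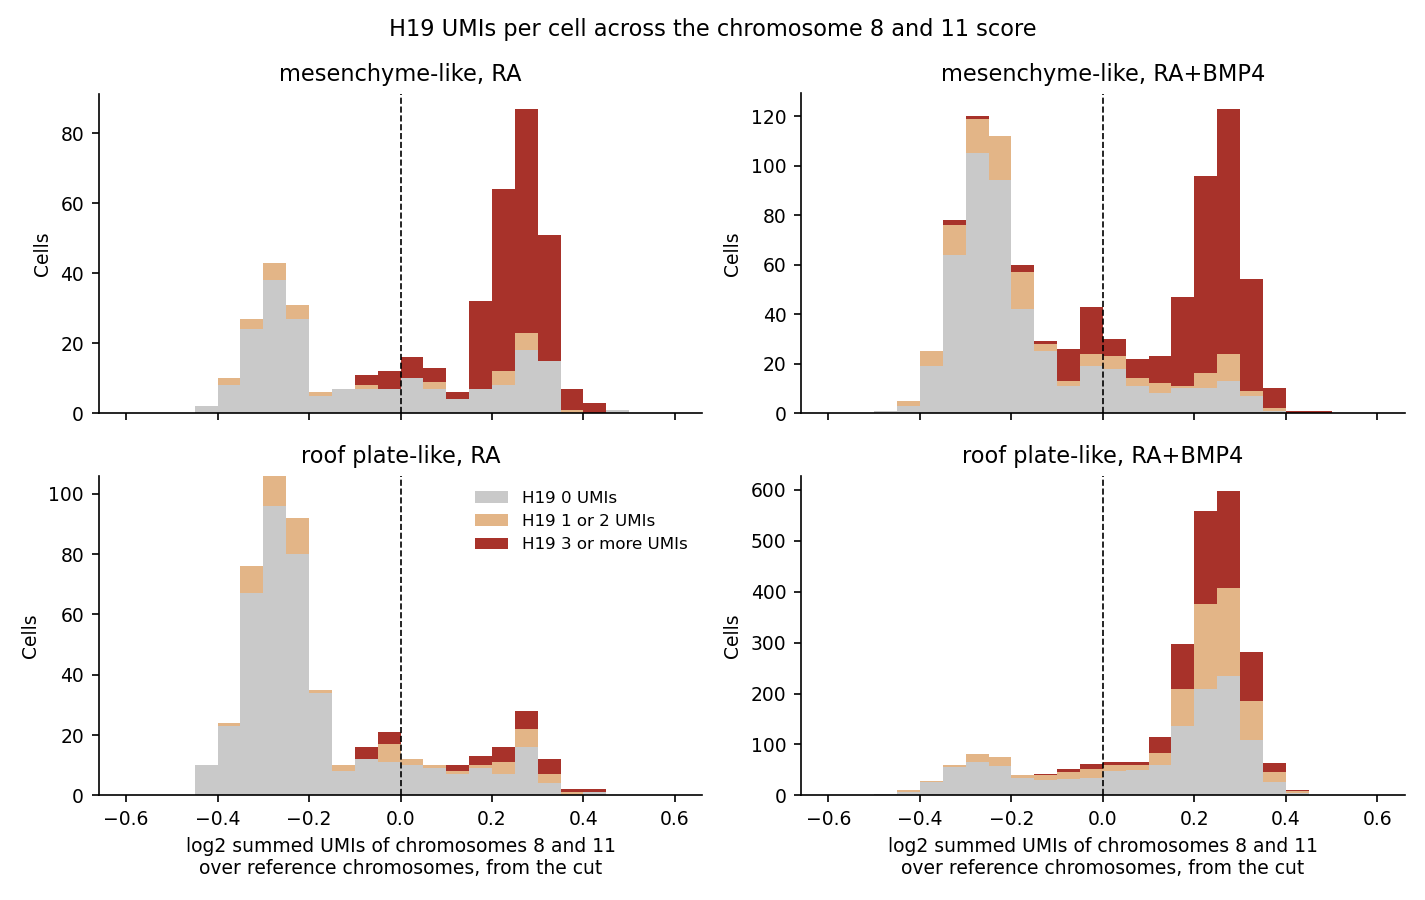
Number of cells (vertical) by their summed UMIs of chromosomes 8 and 11 relative to reference chromosomes, as log2 distance from the cut (horizontal, dashed line at 0), for mesenchyme-like (top) and roof plate-like (bottom) cells of RA (left) and RA+BMP4 (right), coloured by H19 UMIs per cell. In mesenchyme-like cells, 198 of 280 RA and 296 of 407 RA+BMP4 cells right of the cut had at least 3 H19 UMIs, against 8 of 149 and 39 of 499 left of it.

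Nearly all H19 UMIs of mesenchyme-like cells were in the high range. In mesenchyme-like cells of RA it was at 41.7 CPM in the 149 cells of the low range and 713 CPM in the 280 of the high range (17.1-fold, 14.7 to 20.1). In RA+BMP4 the levels were 64.3 CPM in 499 cells and 967 CPM in 407 cells (15.0-fold, 13.8 to 16.4). The low-range value rested on cells near the cut: without those within 0.1 of it, H19 was at 4.78 and 18.3 CPM in the low range and 766 and 1071 CPM in the high range, and no RA cell of the 126 left in the low range had 3 or more H19 UMIs. Per cell without thinning, the high range still held cells without H19, 70 of 280 and 78 of 407. Median depths of the ranges were 23675 and 26249 UMIs in RA and 15261 and 16824 in RA+BMP4.

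Roof plate-like cells showed the same difference at a lower level. H19 was at 12.5 and 116 CPM in the low and high range of RA, and at 41.9 and 236 CPM in RA+BMP4. Here too cells near the cut carried much of the low-range level: without them it was 4.58 (RA) and 19.8 CPM (RA+BMP4), against 144 and 246 CPM in the high range. Dorsal midline epithelium-like cells had 11.9 and 148.5 CPM in RA+BMP4, but 3.92 and 4.83 CPM in RA, where only 42 cells lay in the high range. Neuron-like cells did not show the difference: 4.48 and 4.81 CPM in RA (ratio 1.07, 0.774 to 1.48), and 22.5 and 25.0 CPM in RA+BMP4 (1.11, 0.899 to 1.38). Over 15 class and library pairs with at least 20 cells in each range, H19 was higher in the high range in 15, with an interval above 1 in 12. These pairs include the mesenchyme-like cells by whose H19 the chromosomes were picked.

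Grb10 and Igf2 were lower where H19 was higher. Grb10 in mesenchyme-like cells was at 244 CPM in the low and 89.0 CPM in the high range of RA (ratio 0.364, 0.331 to 0.402), and at 272 and 86.6 CPM in RA+BMP4 (0.319, 0.292 to 0.347). It lies on chromosome 11 itself, whose other genes were summed to set the ranges, and it went against them. Its ratio was below 1 in 14 of 15 pairs, with an interval below 1 in 13. Such a count was not particular to Grb10 among imprinted genes. Gnas was lower in 15 of 15 pairs and Zdbf2 in 14, each with an interval below 1 in 12, and Igf2r in 14, with 6. The median ratios were 0.852 for Gnas, 0.625 for Zdbf2 and 0.741 for Igf2r, against 0.3645 for Grb10. The share over all genes is not given here for these pairs. Igf2 in mesenchyme-like cells was at 105 and 53.4 CPM in RA (0.510, 0.445 to 0.585) and 106 and 50.1 CPM in RA+BMP4 (0.474, 0.420 to 0.534). Its ratio was below 1 in 11 of 14 pairs, most of them with few UMIs, and the interval lay below 1 in 4.

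Plagl1, a paternally expressed zinc-finger factor outside the listed members, was higher in the high range in 13 of 15 pairs, as H19 was in 15. It was called in the whole libraries as well, at 16.4 and 43.9 CPM (ratio 2.68, 2.54 to 2.84). In mesenchyme-like cells it stood at 12.4 and 69.8 CPM in the low and high range of RA, and at 8.95 and 87.8 CPM in RA+BMP4. Unlike H19 it also followed the range in neuron-like cells, at 2.46 and 10.7 CPM in RA and 4.85 and 20.5 CPM in RA+BMP4. Its interval lay above 1 in 11 of 15 pairs. In pluripotent-like cells of RA, where H19 had a ratio of 18.9, Plagl1 had 0.670 (0.246 to 1.59), from 26 UMIs in the low and 7 in the high range. Mest and Ndn were also higher in most pairs, with median ratios of 1.167 and 1.135 against 4.34 for Plagl1.

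**Figure D4:**
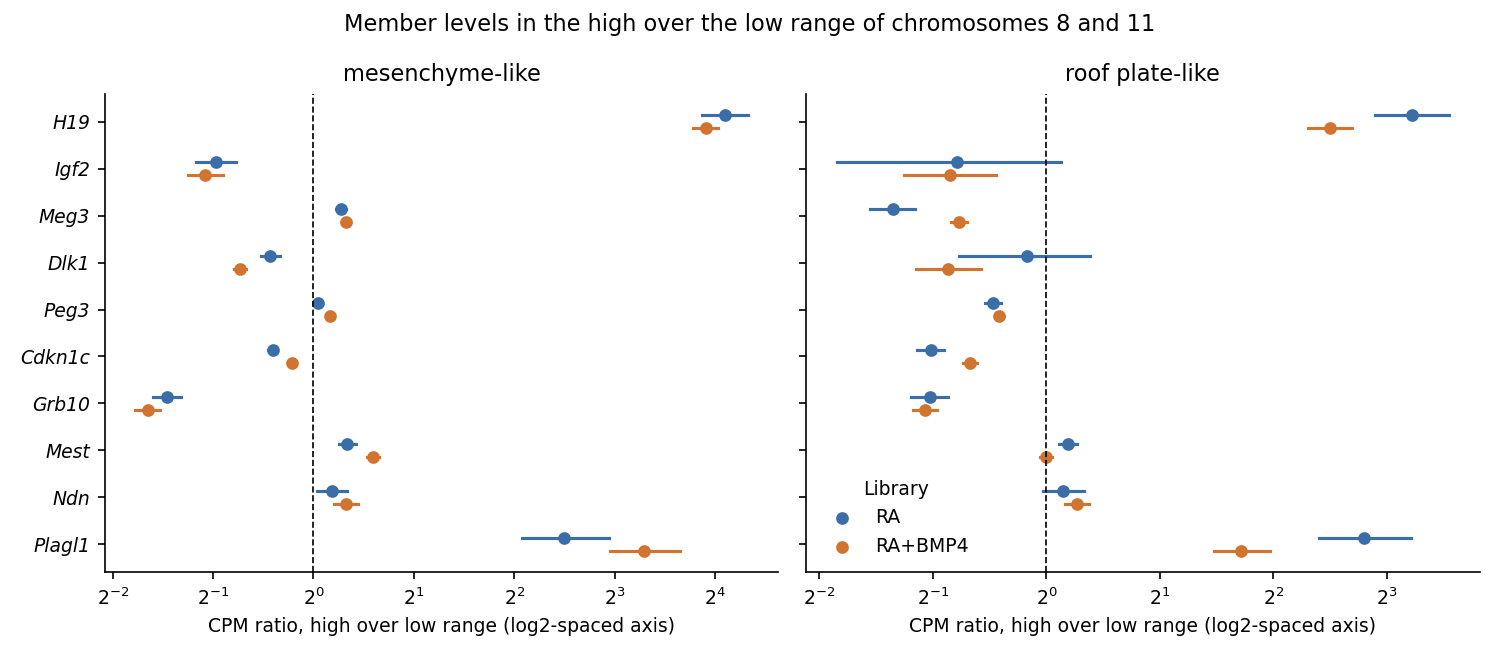
Ratio of CPM in the high over the low range of chromosomes 8 and 11 (log axis) for the 9 members and Plagl1 in mesenchyme-like (left) and roof plate-like (right) cells; points are ratios, bars are 95% counting intervals, RA in blue and RA+BMP4 in orange. H19 and Plagl1 lie right of 1 and Grb10 left of 1 in both classes and libraries, and the other members stay within 3-fold of 1.

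The remaining members did not always differ between the ranges in 1 direction, and some differed as much as Igf2. Dlk1 was lower in the high range in 12 of 15 pairs, with an interval below 1 in 7, against 4 for Igf2. Dlk1 in mesenchyme-like cells was at 392 and 291 CPM in RA and 649 and 390 CPM in RA+BMP4, and Mest was at 401 and 505 CPM and 429 and 648 CPM. Meg3 was higher in the high range of mesenchyme-like cells (1262 and 1527 CPM in RA, 1395 and 1749 in RA+BMP4) and lower in that of roof plate-like cells (276 and 108 CPM, 388 and 228 CPM). Cdkn1c was lower in the high range in 11 of 15 pairs, with an interval below 1 in 9 and above 1 in 4. In newborn neuron-like cells Cdkn1c was higher there, at 5795 and 8255 CPM in RA and 5059 and 7284 CPM in RA+BMP4. Peg3 ratios lay between 0.695 and 1.12 over the 15 pairs. Ndn ratios were above 1 in 13 of 15.

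Over all genes, few differed as much between ranges in both libraries. In mesenchyme-like cells 11 of 6327 genes (0.174%) were at least 2-fold higher in the high range in both libraries, H19 and Plagl1 among them, and 12 (0.19%) at least 2-fold lower, Grb10 among them. Of these 12, 10 were on the X chromosome, such as Eif1ax and Sat1, named after their values were seen. The share of X genes among all genes tested is not given here. In roof plate-like cells 14 of 6641 genes (0.211%) were higher, again with H19 and Plagl1, and 25 (0.376%) lower, again with Grb10. There 9 of the 14 lay on chromosome 8 or 11, which the split itself raises, and only 2 of the 25 lay on the X chromosome.

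The ranges were unequally filled in the 2 libraries. Of roof plate-like cells, 21.2% (17.7 to 25.1) were in the high range in RA and 82.0% (80.4 to 83.5) in RA+BMP4. The shares were 49.3% and 85.0% in progenitor-like, 41.3% and 82.9% in neuron-like, 8.17% and 36.8% in dorsal midline epithelium-like and 26.2% and 45.9% in pluripotent-like cells. Mesenchyme-like cells were the exception, with 65.3% in RA and 44.9% in RA+BMP4. Over all cells the shares were 39.0% and 75.6%.

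**Figure D5:**
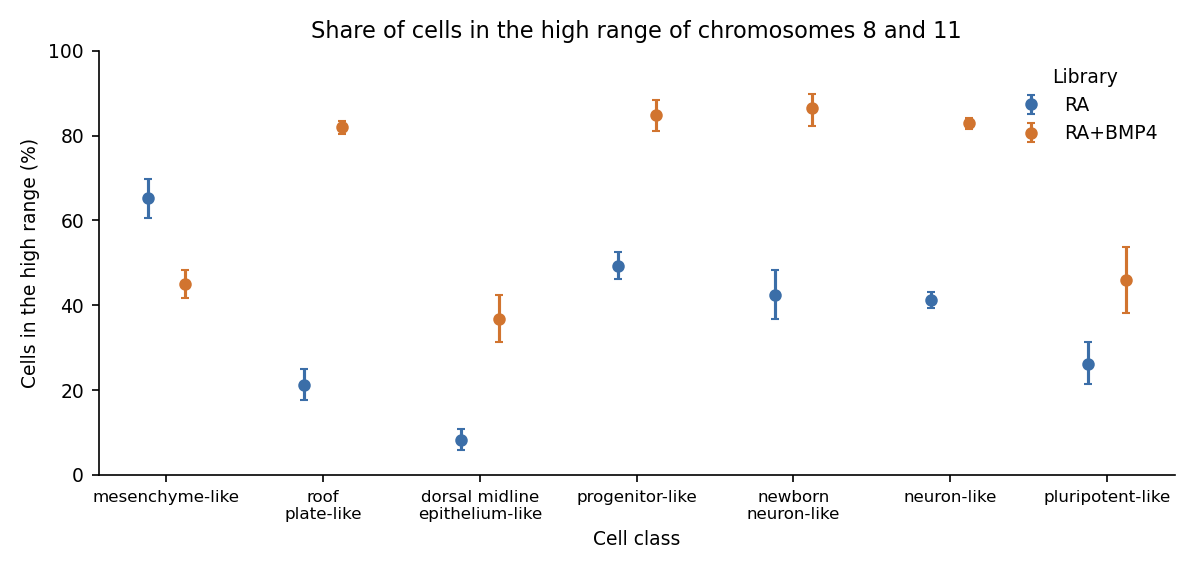
Share of cells in the high range of chromosomes 8 and 11 (percent) by cell class, RA in blue and RA+BMP4 in orange; bars are exact 95% counting intervals. The RA+BMP4 share is above the RA share in 6 classes and below it in mesenchyme-like cells (44.9% against 65.3%).

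H19 also differed between libraries inside a range. In the high range of roof plate-like cells it was at 116 CPM in RA and 236 in RA+BMP4, a ratio of 2.03 (1.79 to 2.31), and in the low range the ratio was 3.36 (2.67 to 4.23), against 6.14 for both ranges together. Without cells near the cut these were 1.71 and 4.33. In mesenchyme-like cells the ratio was 1.36 (1.31 to 1.40) in the high and 1.54 (1.30 to 1.85) in the low range, against 0.986 for both together. Without cells near the cut the high range gave 1.40 (1.35 to 1.45) and the low range 3.82 (2.27 to 6.87), the latter from 16 UMIs in RA. Progenitor-like cells kept ratios of 4.39 and 5.15, and neuron-like cells 5.19 and 5.01. In the high range of pluripotent-like cells H19 was at 58.2 and 20.3 CPM (0.348, 0.264 to 0.454), with 126 of 304 RA UMIs in 1 cell, and at 34.4 and 16.8 CPM (0.488, 0.355 to 0.662) without the richest cell of each library. Grb10 in roof plate-like cells had a ratio of 0.603 in the high and 0.620 in the low range, against 0.395 over the class. Igf2 in the low range of these cells was at 8.58 CPM in RA and 13.3 in RA+BMP4, from 79 and 74 UMIs. In the high range Igf2 was at 4.97 and 7.37 CPM, from 11 and 180 UMIs. Igf2 was thus higher in RA+BMP4 within each range, though the class as a whole did not differ beyond counting error. With strata of cluster and range, the H19 ratio was 1.47 at the RA makeup and 1.45 at that of RA+BMP4. These strata covered other cells, with an observed ratio of 2.12 against 2.61 by cluster. How far the ranges account for the whole-library difference was not tested, since each condition is 1 library and the mix of ranges and the treatment cannot be told apart.

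Inside the high range, Igf2 was still seen less often in mesenchyme-like cells with H19. At 5000 UMIs, Igf2 was seen in 16.4% (11.3 to 22.6) of the 183 RA cells with H19 and in 36.1% (26.6 to 46.5) of the cells without. In RA+BMP4 the shares were 16.6% (12.6 to 21.3) of 301 cells and 38.7% (29.4 to 48.6) of those without. With all UMIs counted they were 57.1% and 87.1% in RA, and 42.6% and 80.8% in RA+BMP4. In the low range, where 7 and 59 cells had an H19 UMI after thinning, Igf2 was seen in 43.6% (35.5 to 52.0) and 40.5% (36.1 to 44.9) of all cells, values whose intervals overlap those of the high-range cells without H19.

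Promoters were examined for the genes that followed the ranges. RefSeq start-site windows (GRCm38.p6, 250 bases upstream) were matched for 8 of the 10 symbols, all but H19 and Cdkn1c, 15 windows in all, and 1 for Plagl1. The windows of Plagl1, of Grb10 (its CpG-rich start) and of Igf2 (its most CpG-rich start) are shown because these genes differed between ranges, with each CpG, the site of DNA methylation, in capitals.
Plagl1 chr10:13090582-13090831 (+): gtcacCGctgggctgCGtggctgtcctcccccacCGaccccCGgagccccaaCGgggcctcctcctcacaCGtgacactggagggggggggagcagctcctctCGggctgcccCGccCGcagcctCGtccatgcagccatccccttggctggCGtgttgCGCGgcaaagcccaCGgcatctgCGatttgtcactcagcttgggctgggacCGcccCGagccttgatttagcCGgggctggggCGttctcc
Grb10 chr11:12037421-12037670 (-): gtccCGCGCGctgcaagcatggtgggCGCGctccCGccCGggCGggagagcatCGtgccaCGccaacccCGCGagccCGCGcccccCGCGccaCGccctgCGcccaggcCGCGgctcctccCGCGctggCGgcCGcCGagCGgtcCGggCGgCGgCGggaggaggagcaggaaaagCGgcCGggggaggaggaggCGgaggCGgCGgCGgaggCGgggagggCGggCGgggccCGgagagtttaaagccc
Igf2 chr7:142658805-142659054 (-): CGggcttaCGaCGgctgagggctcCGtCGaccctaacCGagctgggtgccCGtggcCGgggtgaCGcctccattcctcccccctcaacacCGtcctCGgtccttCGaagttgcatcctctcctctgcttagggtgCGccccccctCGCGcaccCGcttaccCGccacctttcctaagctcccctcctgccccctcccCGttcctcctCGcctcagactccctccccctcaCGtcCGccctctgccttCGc
They hold 19, 40 and 22 CpGs, where the median over 32851 mouse windows is 6. The latter pair were picked for their CpGs: the other Grb10 window holds 8, and the other Igf2 windows 6, 10 and 1. The sequence GGGGCCCC, an element bound by the Plagl1 protein, was found on either strand in 0.889% of all windows, GGCGCC, a BMP SMAD element, in 9.59%, and the DR5 retinoic acid response element in 0.00913%. None of the 3 occurred in these 3 windows. Among the member windows, Peg3 held 1 GGGGCCCC and 1 GGCGCC, and 2 overlapping Mest windows shared 1 GGCGCC. The start site in use was not measured.

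The median ratio of the imprinted genes as a list lay close to that of all genes. With 20 of 21 maternally and 28 of 29 paternally expressed genes and 3 others found, 51 were examined and 30 reached 20 CPM. Of these 30, 2 were called higher (H19 and Plagl1) and none lower, against 0.811% and 0.601% of all genes tested. H19 is the gene by which the members were chosen. The median log2 ratio was 0.13 against 0.07 over all genes tested. Of 10 maternally expressed genes tested 1 was called, and of 18 paternally expressed genes 1. Genes of the same domains as the members mostly stayed close: Usp29, beside Peg3, was at 47.4 and 65.5 CPM, Kcnq1ot1, the non-coding RNA antisense to Kcnq1 in the Cdkn1c domain, at 643 and 628 CPM, and Mirg at 17.2 and 18.6 CPM. Zim1, also of the Peg3 domain, was at 6.31 and 9.57 CPM. Phlda2, a placental growth restrainer near Cdkn1c, was below the level limit at 13.7 and 4.03 CPM (ratio 0.294, 0.263 to 0.329). Pluripotent-like cells, 327 in RA and 179 in RA+BMP4, held 85.4% and 53.55% of its UMIs. Its ratio was 0.464 in these cells, 0.57 (0.34 to 0.92) in dorsal midline epithelium-like cells and 0.94 (0.63 to 1.42) in mesenchyme-like cells.

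Of 12 genes tested in the IGF pathway around Igf2, none was 2-fold apart in the whole libraries. Over all genes tested, 0.811% were called higher and 0.601% lower. At such shares a list of this size would rarely hold a call, so the absence of calls says little about the pathway. Igfbp5, a secreted IGF-binding protein, was nearest at 386 and 730 CPM (ratio 1.89), followed by Igf1 at 30.4 and 52.3 CPM (1.72). Igf2r, the imprinted receptor that clears IGF2, was at 38.4 and 47.0 CPM. By cluster, Igfbp2 was called higher in 7 of 20 and lower in none, 6 of them neuron-like, as in the dI5-like cluster 7 at 99.7 and 536 CPM. Igfbp5 was called higher in 6 of 20 and lower in 1. Of 13 genes for imprint maintenance and DNA methylation, 10 reached 20 CPM and none was called, with the same limit of a short list. Below that level, the de novo methyltransferase Dnmt3b was at 14.8 and 7.10 CPM (ratio 0.479) and its cofactor Dnmt3l at 15.6 and 6.16 CPM (0.395), both named after their values were seen. These are whole-library values, and the 2 genes were not compared by cell class. None of 3 Cip/Kip inhibitors was called, a list shorter still.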

How the data were processed

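The authors deposited 2 matrices of unnormalised UMI counts (whole numbers, genes by barcodes). Tools named in the submitters' processing notes are CASAVA and, for GRCm38, Cell Ranger 3.0.2. Neither the annotation release nor the settings for calling cells were given in the sources used here. The libraries held 122110565 (RA) and 115268932 (RA+BMP4) UMIs over 9704 and 13121 barcodes. Barcodes under 1000 genes or over 10% mitochondrial UMIs were dropped, and Scrublet (scanpy 1.11.5) removed 142 and 317 doublets. Both libraries were clustered together (3000 variable genes, 30 components, leidenalg 0.10.2, resolution 1) without imprinted, marker, mitochondrial or ribosomal genes, and clusters were named from marker lists. Sums of counts were scaled to CPM. Ratios carry exact conditional binomial intervals and shares exact Clopper-Pearson intervals, at 95%; in a ratio, counts under 3 were set to 3. UMI sums with known changes were simulated to check the calls. Genes named are all members, list genes called or in a member's domain, and the 10 most alike; others, among them Igf1 and Igf2r, were named after their values were seen. The members, lists and comparisons were chosen with earlier results of these data known. The chromosome 8 and 11 split (cells with at least 5000 UMIs, a 2-part mixture per cluster on genes of 5 to 300 CPM, cut at the midpoint, reference autosomes without 1, 8, 11 and 14) was added after seeing them. Alternatives included scaling by TMM (edgeR 4.0.16) and by median of ratios. No test was possible with 1 library per condition.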

Additional observations from a re-analysis of the deposited data

How the results depend on the processing

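No paired analysis was possible because each condition was 1 library. Of 480 values recomputed under an alternative, 477 kept their direction; the 3 that turned were the H19 log2 ratio of pluripotent-like cells without the H19-richest cell of each library (0.088, added after seeing the data), the Cdkn1c log2 ratio under a stricter cell filter (0.061) and the ratio of shares of cells with an Ndn UMI without thinning (0.967). The H19 log2 ratio of 1.28 became 1.22 with TMM, 1.20 with median of ratios, 1.55 with cells weighted equally, 1.35 with all barcodes, 1.02 with the stricter filter, 1.17 without pluripotent-like cells and, in an alternative added after seeing the data, 2.97 without mesenchyme-like cells. Leaving out each cluster in turn gave 1.13 to 2.12. At resolution 0.5 the log2 ratio at the RA makeup was 0.68 and at 1.5 that at the RA+BMP4 makeup 0.54. Strata of cluster and range gave 0.55 and 0.54, over other cells with an observed ratio of 2.12 against 2.61 by cluster. The H19 ratio of shares, 3.802, was 2.73 without thinning. At 5 CPM 1 imprinted gene was called lower, and at 1.5-fold 1. Imprinted genes added to the higher calls included Kcnk9 at 5 CPM (2.25 and 7.69 CPM, ratio 3.42, 2.95 to 3.96) and Dlk1 at 1.5-fold (1.86). In the IGF list 2 were called higher at 1.5-fold and 1 without mesenchyme-like cells. High over low range, the H19 log2 ratio in mesenchyme-like cells was 7.33 (RA) and 5.87 (RA+BMP4) without cells near the cut, and 4.79 and 3.69 in RA+BMP4 with chromosome 8 or 11 alone; in roof plate-like cells it was 4.98 and 3.64 without cells near the cut, and 4.50 in RA with chromosome 8 alone. The cause of these shifts was not tested. Depth limits Igf2 outside mesenchyme-like cells.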
